A study of Homo sapiens with 9 samples.

Results

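Hyaluronan synthesis, turnover and binding were followed through 8 genes in HaCaT keratinocytes, an immortalized human epidermal line. The genes were chosen by symbol for their role, and they are the hyaluronan synthases HAS1, HAS2 and HAS3, the hyaluronidases HYAL1, HYAL2 and HYAL3, the precursor enzyme UGDH and the receptor CD44. All 8 were among the 16199 genes with a count in at least 1 library, and 7 of them were among the 12394 genes that passed the count filter. HAS1 did not pass. Confluent cells of one line with the genotype label WT were kept in serum-free medium alone (untreated), or were treated for 24 h with epidermal growth factor (EGF, 10 nM) or with the plant peptide bleogen pB1 (1 µM), with 3 libraries per group. The comparison asks how the response to the peptide relates to that of EGF, the growth factor used as the reference treatment. The labels do not say that the 3 libraries of a group came from separate cultures, so that p-values measure only the spread between these libraries, which may be technical.

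Hyaluronan is a long unbranched sugar polymer of the space between epidermal cells. It is built at the plasma membrane by the HAS enzymes from UDP-glucuronic acid and UDP-N-acetylglucosamine, and it is broken down by hyaluronidases at the cell surface and in lysosomes. CD44 is its main receptor on keratinocytes, and growth factors of the EGF family are known to raise hyaluronan production in this cell type.

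The libraries held between 20288417 and 21320994 expected counts (estimates that divide reads between the transcripts they fit), with a median of 20629237. Values were scaled to the size of the library and are given as CPM (counts scaled to a common library size). The limit that a count of 0 allows, taken as 3 counts, was 0.1407 to 0.1479 CPM and covers counting error only. Genes were called with edgeR's quasi-likelihood test at an adjusted p of at most 0.05 and a log2 fold change (log2FC) of at least 0.5 in either direction. All 10 keratinocyte markers were listed in every library. Their summed level was 11316 to 12571 CPM in untreated, 9467 to 9789 CPM in EGF-treated and 11081 to 12927 CPM in bleogen pB1-treated cells. Under EGF, KRT14, TP63 and KRT10 were called higher and KRT5, KRT1, IVL and CDH1 lower. Summed fibroblast markers were 7.62 to 9.31, 1.30 to 2.00 and 6.08 to 9.17 CPM, with 4 of 7 under 1 CPM in every library. Summed melanocyte markers were 6.73 to 9.12, 5.24 to 6.60 and 6.64 to 7.96 CPM, with TYR listed in no library. Summed endothelial and leukocyte markers were 3.78 to 4.92, 0.530 to 0.806 and 1.35 to 2.15 CPM, with 4 of 6 under 1 CPM in every library. The part that these shifts have in the changes of the hyaluronan genes was not tested. In such bulk RNA, fewer cells that express a gene cannot be told apart from less RNA of that gene per cell.

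Under EGF, 4 of the 7 tested members were called. HAS3, CD44 and HYAL3 rose by 4.79-fold, 2.35-fold and 1.62-fold, and HYAL1 fell 2.23-fold. The remaining members tested, HAS2, HYAL2 and UGDH, were not called. Over all genes tested, 36.9% were called (15.1% higher and 21.8% lower), so the background of this comparison is high. With upper-quartile in place of TMM scaling, which shifts the median log2FC of all genes from -0.01 to -0.12, the share of higher genes among all calls was 30.2% in place of 41.0%, and the 4 members kept their calls and directions. The median log2FC of the 7 members was 0.14. For bleogen pB1, none of the 7 members was called by edgeR or by DESeq2, where 1.48% of all genes were called by edgeR, and 1 member, HYAL1, had an unadjusted p under 0.05. The median log2FC of the members was 0.07 for bleogen pB1, against -0.001 over all genes.

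**Figure D1:**
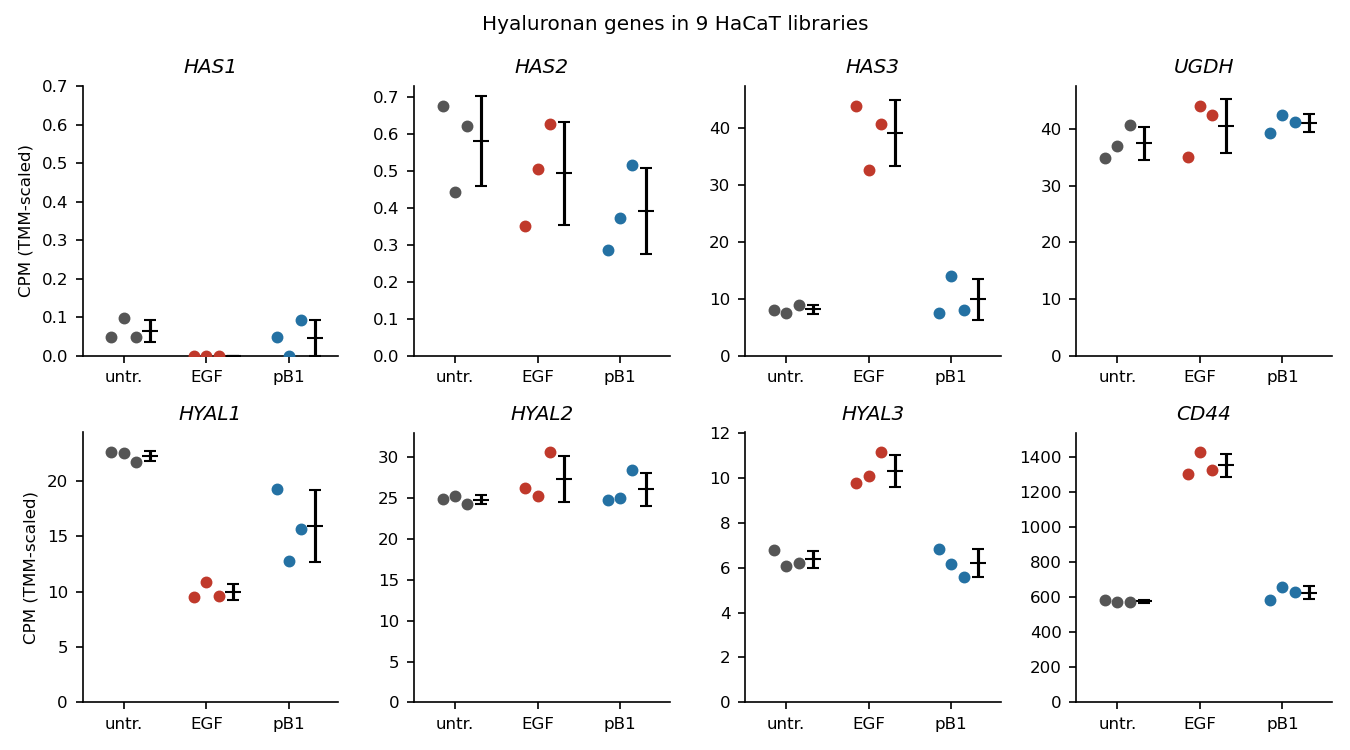
Level of each member (vertical axis, CPM from 0) in the untreated (grey), EGF-treated (red) and bleogen pB1-treated (blue) libraries, one point per library in the order of replicates 1 to 3, with the mean and SD of each group in black. Of the tested members, HAS3, HYAL3 and CD44 were higher and HYAL1 was lower in all 3 EGF-treated libraries than in any untreated library. HYAL2, which was not called, was also higher, by a small margin (25.28 CPM in EGF replicate 2 against 25.25 CPM in untreated replicate 2).

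The synthases were carried almost wholly by HAS3. HAS3 makes hyaluronan chains at the plasma membrane, and its gene lies at chr16:69105653-69118719 on the forward strand (GENCODE release 44 on GRCh38). Its level was 8.10, 7.47 and 8.93 CPM in the 3 untreated libraries, 43.9, 32.7 and 40.8 CPM after EGF, and 7.60, 14.1 and 8.10 CPM after bleogen pB1. Every EGF-treated library was above every other library, whereas only replicate 2 of the bleogen pB1-treated cells rose above the untreated range. The mean rose from 8.17 ± 0.735 to 39.1 ± 5.78 CPM (SD, n = 3 each) under EGF, with a log2FC of 2.26 (SE 0.20, 95% interval 1.84 to 2.68, edgeR adjusted p = 7.4e-07). Under bleogen pB1 the mean was 9.92 ± 3.60 CPM, and the log2FC was 0.28 (95% interval -0.17 to 0.73, edgeR adjusted p = 0.46). That value rested on 1 library, since it was -0.06 without bleogen pB1 replicate 2. Between the 2 treatments HAS3 was 3.94-fold higher in the EGF-treated cells (log2FC 1.98, SE 0.19, edgeR adjusted p = 2.8e-06). The last 710 bases of HAS3 overlap CHTF8 on the opposite strand, and it is not stated whether the counting used the strand. The expected counts of HAS3 were not whole numbers, so that reads may have been divided with another gene and its level is uncertain to that extent. CHTF8 under EGF passed the limit on p but not on the fold, and was not called (log2FC -0.15, edgeR adjusted p = 0.016).

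HAS2, a synthase of the same family, was close to the limit of detection. The untreated libraries held 14, 9 and 13 counts, the EGF-treated libraries 7, 10 and 13, and the bleogen pB1-treated libraries 6, 8 and 11. All 3 groups overlapped. The log2FC was -0.23 for EGF (SE 0.37, 95% interval -1.02 to 0.57, edgeR adjusted p = 0.60) and -0.56 for bleogen pB1 (SE 0.38, 95% interval -1.38 to 0.26, edgeR adjusted p = 0.41). At this depth the intervals include both a rise and a fall of HAS2, and neither was detectable.

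HAS1, at chr19:51713112-51723991 on the reverse strand, had 1, 2 and 1 counts in untreated cells, no count in any EGF-treated library, and 1, 0 and 2 counts after bleogen pB1. Each of these values lay under the limit of 3 counts, so that no difference could be given.

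Per gene length, in FPKM (fragments scaled for gene length and library size), HAS3 held 90.6 ± 0.626% of the summed HAS level in untreated cells, 98.4 ± 0.489% after EGF and 94.2 ± 2.82% after bleogen pB1 (SD, n = 3 each). The single libraries gave 89.9%, 90.9% and 91.0% for untreated cells, 99.0%, 98.1% and 98.1% for EGF, and 94.7%, 96.7% and 91.2% for bleogen pB1. The groups did not overlap in any pair (exact permutation test, two-sided, p = 0.1 for each, the smallest p that 3 against 3 allows). The margin for bleogen pB1 was small, with 91.18% in bleogen pB1 replicate 3 against 91.02% in untreated replicate 3. HAS2 lay at 0.14 to 0.21 FPKM in untreated and 0.09 to 0.16 FPKM in bleogen pB1-treated libraries, so that the share in the latter rests on the few HAS2 and HAS1 counts above. The summed HAS level was 2.27 ± 0.185 FPKM in untreated cells, 9.57 ± 1.39 after EGF and 2.72 ± 0.856 after bleogen pB1, and only EGF left the untreated range in all 3 libraries.

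Upstream of the synthases, UGDH oxidizes UDP-glucose to UDP-glucuronic acid (chr4:39498755-39528311, reverse strand). It measured 34.9, 37.0 and 40.6 CPM in untreated cells, 35.1, 44.1 and 42.4 CPM after EGF, and 39.3, 42.4 and 41.3 CPM after bleogen pB1. These ranges overlapped in every comparison. The 95% intervals of the log2FC were -0.08 to 0.31 for EGF and -0.07 to 0.32 for bleogen pB1 (edgeR adjusted p = 0.29 and 0.43).

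The 3 hyaluronidase genes form a cluster on the reverse strand of chromosome 3 and moved in different directions under EGF. HYAL1, a lysosomal hyaluronidase (chr3:50299890-50312381), measured 22.6, 22.5 and 21.7 CPM in untreated cells, 9.55, 10.8 and 9.63 CPM after EGF, and 19.3, 12.8 and 15.6 CPM after bleogen pB1. The 3 groups were fully separate, with EGF lowest and bleogen pB1 in between. The mean fell from 22.3 ± 0.461 to 10.0 ± 0.716 CPM under EGF (SD, n = 3 each), a log2FC of -1.15 (SE 0.13, 95% interval -1.44 to -0.87, edgeR adjusted p = 7.3e-06).

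Under bleogen pB1 the mean of HYAL1 was 15.9 ± 3.25 CPM. The log2FC was -0.49 (SE 0.13, 95% interval -0.76 to -0.21) with an edgeR adjusted p of 0.0499, so that HYAL1 passed the limit on p and missed the limit on the fold. It was the member nearest to a call for the peptide. Leaving out bleogen pB1 replicate 1, the library with the highest HYAL1 level of that group, gave a log2FC of -0.65 and a call (edgeR adjusted p = 0.00455). Leaving out any one of the other libraries in this comparison gave log2FC values from -0.50 to -0.36 with edgeR adjusted p from 0.113 to 0.193. DESeq2 on all 9 libraries gave -0.49 with an adjusted p of 0.0124. The adjusted p ranged from 0.00455 to 1 over the alternatives, where the value of 1 came from testing against a log2FC of 0.5. HYAL1 differed between the treatments as well, and was 1.59-fold lower after EGF than after bleogen pB1 (log2FC -0.67, SE 0.13, edgeR adjusted p = 0.00094).

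HYAL2, a hyaluronidase anchored at the cell surface (chr3:50317790-50322782), measured 24.9, 25.2 and 24.2 CPM in untreated cells, 26.2, 25.3 and 30.6 CPM after EGF, and 24.8, 25.0 and 28.4 CPM after bleogen pB1. Its EGF-treated libraries lay above the untreated ones by a small margin. The log2FC of 0.14 for EGF had a 95% interval of -0.05 to 0.34 (edgeR adjusted p = 0.18), and that of 0.07 for bleogen pB1 an interval of -0.12 to 0.27 (edgeR adjusted p = 0.68). It shares 2756 bases of its strand with TUSC2, which under EGF passed the limit on p but not on the fold (log2FC 0.31, edgeR adjusted p = 0.0083).

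HYAL3, a family member whose enzyme activity is less clear (chr3:50292831-50299405), measured 6.80, 6.09 and 6.21 CPM in untreated cells, 9.75, 10.1 and 11.1 CPM after EGF, and 6.83, 6.17 and 5.57 CPM after bleogen pB1. EGF-treated libraries did not overlap with the others, and bleogen pB1-treated libraries spanned the untreated range. The log2FC was 0.70 for EGF (SE 0.12, 95% interval 0.43 to 0.96, edgeR adjusted p = 0.00025) and -0.04 for bleogen pB1 (95% interval -0.31 to 0.23, edgeR adjusted p = 0.88). HYAL3 overlaps NAA80 on the same strand over 3004 bases, and its expected counts were not whole numbers, so that the division of reads between both genes makes its level uncertain. NAA80, listed in the files under its older symbol NAT6, was not called (log2FC -0.14 for EGF, edgeR adjusted p = 0.40). IFRD2, which shares 88 bases with HYAL3, passed the limit on p and missed the limit on the fold (log2FC 0.48, edgeR adjusted p = 0.0029). Its EGF-treated libraries did not overlap with the untreated ones.

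Per gene length, HYAL1 made up 38.7 ± 0.377% of the summed level of the 3 HYAL genes in untreated cells, 18.7 ± 2.43% after EGF and 30.1 ± 3.99% after bleogen pB1 (SD, n = 3 each). HYAL2 went from 46.8 ± 0.945% to 55.1 ± 2.78% and 54.3 ± 4.67%, and HYAL3 from 14.5 ± 0.929% to 26.3 ± 0.524% and 15.7 ± 1.56%. The HYAL1 and HYAL2 shares of each treatment did not overlap with the untreated shares, whereas for HYAL3 this held for EGF alone (exact permutation test, p = 0.1 for each pair without overlap, the smallest possible, and p = 0.3 for HYAL3 under bleogen pB1). Shares of one sum depend on each other, so that the HYAL2 share rises where HYAL1 falls. The sum itself was 25.5 ± 0.271 FPKM in untreated cells, 23.0 ± 1.72 after EGF and 23.5 ± 1.73 after bleogen pB1. In these deposited values every treated library was below every untreated one (exact permutation test, p = 0.1 for each treatment). The margin under EGF was small, with 24.97 FPKM in EGF replicate 3 against 25.32 FPKM in untreated replicate 3. Unlike the CPM, these FPKM were not TMM-scaled, and TMM scaling raises the EGF-treated libraries relative to the untreated ones. Dividing each sum by the TMM factor of its library would put EGF replicate 3 above untreated replicate 3. The separation under EGF therefore holds only for the FPKM without TMM scaling.

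CD44 (chr11:35138882-35232402, forward strand), the surface receptor that binds hyaluronan and links to the actin skeleton, was the member with the highest level per length. It measured 583, 569 and 573 CPM in untreated cells, 1298, 1423 and 1326 CPM after EGF, and 584, 658 and 629 CPM after bleogen pB1. EGF-treated libraries held more than 2 times the level of any untreated library, and bleogen pB1-treated libraries lay just above the untreated ones. The log2FC was 1.23 for EGF (SE 0.06, 95% interval 1.10 to 1.36, edgeR adjusted p = 6.3e-09). For bleogen pB1 it was 0.12 (SE 0.06, 95% interval -0.02 to 0.25, edgeR adjusted p = 0.29), a change of at most 1.19-fold at the upper end of the interval. CD44 was 2.16-fold higher after EGF than after bleogen pB1 (edgeR adjusted p = 2.3e-08).

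**Figure D2:**
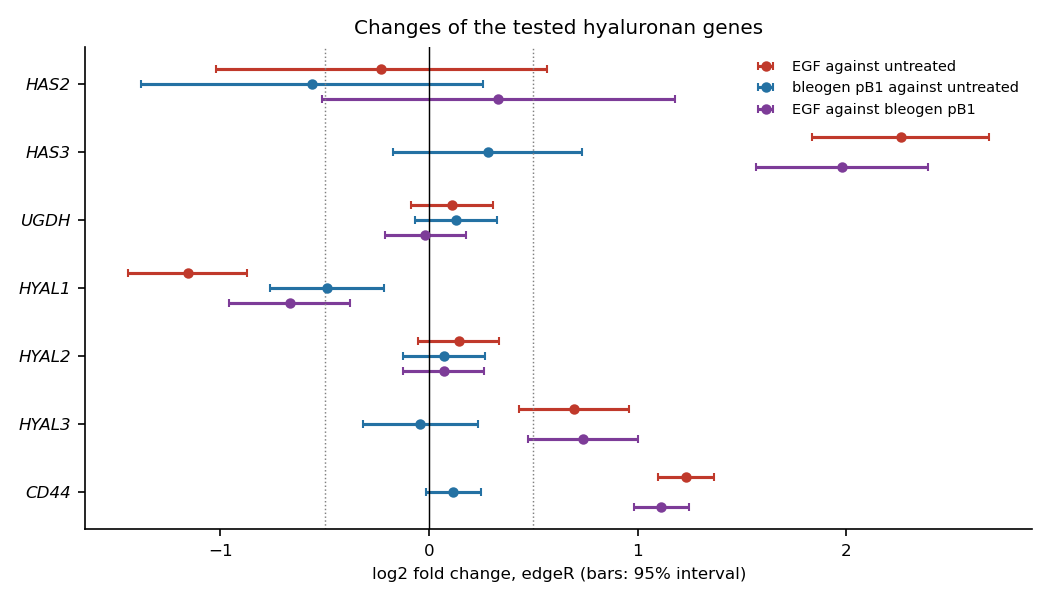
Log2 fold change of the 7 tested members (horizontal axis, edgeR, bars are 95% intervals) for EGF against untreated (red), bleogen pB1 against untreated (blue) and EGF against bleogen pB1 (purple), with dotted lines at the limit of 0.5. The EGF intervals of HAS3, HYAL1, HYAL3 and CD44 exclude 0, and of the bleogen pB1 intervals that of HYAL1 does.

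Counted over the members, 5 of 7 had EGF-treated levels that did not overlap with the untreated ones, against 70.4% of all genes tested. For bleogen pB1 this held for 2 of 7, HYAL1 and CD44, against 29.1% of all genes. Both shares are near the background. Between EGF and bleogen pB1, 4 of 7 members were called, with HAS3, HYAL3 and CD44 higher and HYAL1 lower after EGF, where 28.8% of all genes were called (10.8% higher and 18.0% lower, with 28.8% of calls higher under upper-quartile scaling against 37.6%). The CPM of 4 members did not overlap, against 62.4% of all genes. The comparisons of each treatment with untreated cells share the untreated libraries.

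Levels of different genes were compared per gene length only. In untreated cells the order was CD44 with 103 to 107 FPKM, UGDH (11.3 to 13.2) and HYAL2 (11.8 to 12.1), HYAL1 (9.68 to 10.1), HYAL3 (3.43 to 3.94), HAS3 (1.89 to 2.23) and HAS2 (0.14 to 0.21), and of these neighbours only UGDH and HYAL2 overlapped. After EGF, HAS3 with 7.85 to 10.5 FPKM lay above HYAL3 (5.66 to 6.54) and HYAL1 (4.05 to 4.65), so that the order of HAS3 and HYAL1 was turned. The ratio of their mean levels was 0.208 in untreated cells, 2.21 after EGF and 0.361 after bleogen pB1. In the bleogen pB1-treated cells HAS3 (1.97 to 3.57) overlapped HYAL3 (3.35 to 4.14) and stayed below HYAL1 (5.75 to 8.56).

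**Figure D3:**
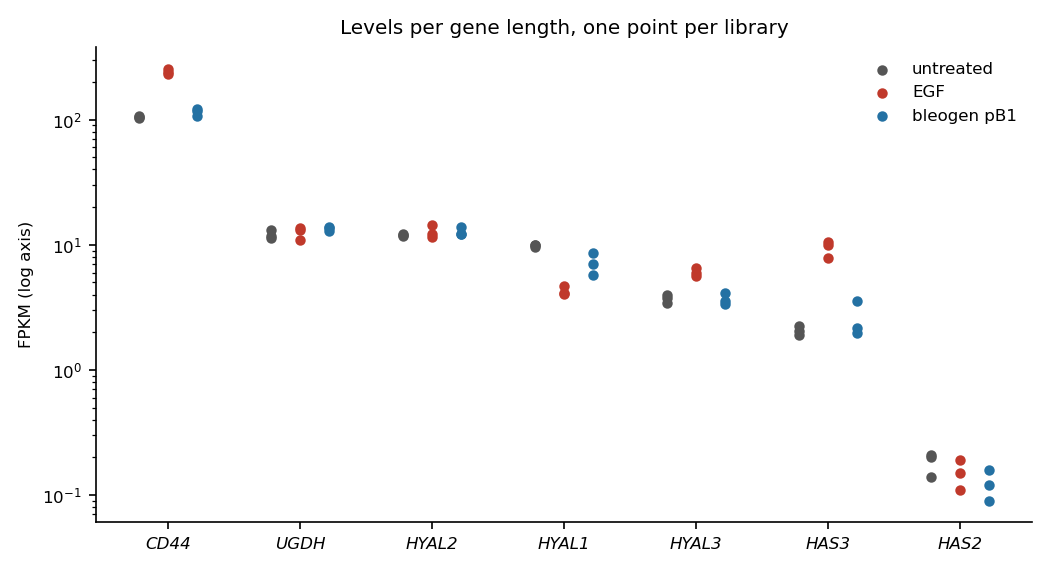
Level per gene length of the 7 tested members (vertical axis, FPKM on a log scale), one point per library, in untreated (grey), EGF-treated (red) and bleogen pB1-treated (blue) cells. HAS3 lay between 1.89 and 2.23 FPKM in untreated cells, below HYAL1, and between 7.85 and 10.5 FPKM after EGF, above HYAL1.

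The files also give the length of each gene in each library, averaged over its transcripts, which moves with the mix of transcripts. For CD44, which has 8 transcripts in the RefSeq annotation of the files, it was 5578, 5598 and 5573 bases in untreated cells, 5486, 5458 and 5456 bases after EGF, and 5583, 5556 and 5571 bases after bleogen pB1. The EGF-treated libraries were all shorter, with a mean of 5467 ± 16.7 against 5583 ± 13.0 bases (SD, n = 3 each, exact permutation test, two-sided, p = 0.1, the smallest possible). Bleogen pB1 gave 5570 ± 13.6 bases, overlapping with the untreated cells (exact permutation test, p = 0.4). HYAL3, with 5 transcripts, went from 1806 ± 54.2 to 1716 ± 9.42 bases under EGF without overlap (exact permutation test, p = 0.1). The division of reads with NAA80 makes this length uncertain, as it does the level of HYAL3. The average length of HAS3, HYAL1, HYAL2 and UGDH overlapped in all 3 comparisons. The share of all genes whose length did not overlap was not computed, so these changes have no background to be read against. Which transcripts of CD44 or HYAL3 changed was not analysed here.

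**Figure D4:**
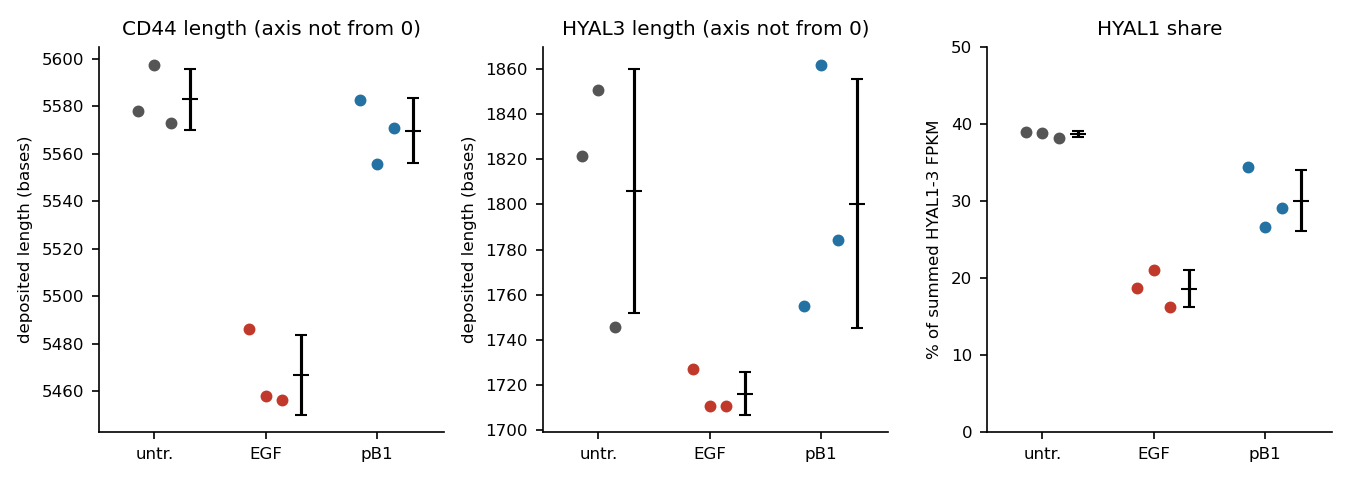
Average transcript length of CD44 and HYAL3 in bases (left and middle, axes that do not start at 0) and the share of HYAL1 in the summed FPKM of the HYAL genes in percent (right, from 0), one point per library with the mean and SD of each group in black. CD44 was 5456 to 5486 bases long in EGF-treated libraries and 5573 to 5598 bases in untreated ones.

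HAS3 and HYAL1, the members with the largest rise and the one called fall under EGF, are shown with the sequence in front of their RefSeq start sites (GRCh38.p14, 5′ to 3′ on the strand of the gene), since these are the regions where motifs of factors known to act downstream of growth factor receptors could be looked for. Capitals mark each match to a GC box (GGGCGG, on either strand) or an E-box (CACGTG). The HAS3 window is chr16:69107290-69107539 on the forward strand and lies in an intron of longer HAS3 transcripts. The HYAL1 window is chr3:50303575-50303787 on the reverse strand, with 37 bases left off where an exon of a longer HYAL1 transcript lies.
HAS3: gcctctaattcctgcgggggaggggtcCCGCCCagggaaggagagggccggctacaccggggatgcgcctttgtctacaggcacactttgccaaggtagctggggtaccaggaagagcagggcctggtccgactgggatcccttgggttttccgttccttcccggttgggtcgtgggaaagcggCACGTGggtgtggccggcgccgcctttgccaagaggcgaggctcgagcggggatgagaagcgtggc
HYAL1: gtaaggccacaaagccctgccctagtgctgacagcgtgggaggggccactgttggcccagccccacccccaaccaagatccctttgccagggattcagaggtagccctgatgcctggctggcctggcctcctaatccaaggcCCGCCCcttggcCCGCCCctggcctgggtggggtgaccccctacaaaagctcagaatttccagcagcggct

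In the 250 bases before the start, HAS3 held 1 GC box and 1 E-box, HYAL1 held 2 GC boxes, CD44 2 GC boxes, and HYAL3 2 GC boxes in each of its 2 windows. GC boxes occur in 42.6% and this E-box in 6.34% of all 35116 RefSeq promoters. None of these windows held an AP-1 site (TGANTCA, in 6.57% of promoters), a CRE (TGACGTCA, 1.65%) or an EGR site (GCGNGGGCG, 8.41%) on either strand. An EGR site can share letters with an overlapping GC box. These are matches of letters in short windows and say nothing on binding.

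The supply of UDP-sugars to the synthases was described with a list of 12 further genes, of which 11 were tested. Under EGF, 4 of these were called higher and 1 lower, where 15.1% of all genes were called higher and 21.8% lower, with a median log2FC of 0.41 against -0.01 over all genes. The highest was HK2, the hexokinase that traps glucose in the cell, at 77.3 ± 7.38 CPM after EGF against 27.1 ± 1.63 CPM in untreated cells (log2FC 1.51, edgeR adjusted p = 3.1e-07). The other 3 belong to the branch that makes UDP-N-acetylglucosamine. They are UAP1, which completes the sugar nucleotide (log2FC 0.89), GFPT1, which controls entry into the branch (0.60), and GNPNAT1, which adds the acetyl group (0.56). PGM3, the remaining enzyme of that branch tested, passed the limit on p but not on the fold, and was not called (log2FC 0.41, edgeR adjusted p = 0.00038). PGM1, which interconverts glucose phosphates, fell (log2FC -0.53).

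UGP2, on the route from glucose phosphate to UDP-glucuronic acid, was not called (log2FC -0.01). Off that route, SLC35D1, a carrier of the finished sugar nucleotide (log2FC -0.05), and UXS1, which uses up UDP-glucuronic acid (0.42), were not called either. UXS1 missed only the limit on the fold (edgeR adjusted p = 0.00035). With upper-quartile scaling 3 of the list were called (HK2, UAP1 and PGM1), and PGM1 was not called without EGF replicate 2, so that GFPT1, GNPNAT1 and PGM1 lie close to the limit of 0.5. For bleogen pB1 none of the 11 was called by edgeR, with a median log2FC of 0.08, and HK2 was called without bleogen pB1 replicate 1.

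Breakdown outside the HYAL cluster was described with 7 genes, of which 6 were tested. Under EGF, CEMIP, a protein that binds and depolymerizes hyaluronan, rose from 14.3 ± 1.498 to 22.1 ± 2.12 CPM (log2FC 0.62), and HEXA, a lysosomal enzyme of sugar chain breakdown, fell from 80.0 ± 4.90 to 53.4 ± 2.18 CPM (log2FC -0.58). The glucuronidase GUSB (log2FC -0.38) and the cell surface hyaluronidase CEMIP2 (0.07) were not called. GUSB missed only the limit on the fold (edgeR adjusted p = 0.0019). With 1 of 6 called in each direction, the list was near the background of 15.1% higher and 21.8% lower, and its median log2FC was -0.24. Neither CEMIP nor HEXA was called when tested against a log2FC of 0.5, and none of the 6 genes was called by edgeR for bleogen pB1 (median log2FC -0.01).

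Other hyaluronan receptors and matrix proteins that bind it were mostly at or near 0. Of 21 such genes 15 were listed in any library and 4 were tested, and LYVE1, STAB1, ACAN, TNFAIP6, ITIH1 and ITIH3 were listed in none. All 4 tested genes were called under EGF, 3 higher and 1 lower, against 36.9% of all genes. HMMR, a hyaluronan binding protein that also acts at the mitotic spindle, rose from 78.5 ± 9.72 to 137 ± 13.0 CPM (log2FC 0.81), TLR4, a receptor of innate immunity, from 14.7 ± 0.976 to 33.9 ± 0.858 CPM (log2FC 1.21), and the proteoglycan BCAN from 4.70 ± 0.353 to 6.82 ± 1.75 CPM (log2FC 0.53). HAPLN3, a link protein, fell from 1.13 ± 0.115 to 0.498 ± 0.181 CPM (log2FC -1.18). It held at most 26 counts in any library, and a gene this low in EGF-treated cells can pass the filter through the other groups. HAPLN3 was not called by DESeq2 on the 6 libraries compared, nor with at least 10 counts required in every library. The count of 4 out of 4 is limited to that extent. BCAN was not called without untreated replicate 1, untreated replicate 2 or EGF replicate 2, nor with upper-quartile or no scaling. None of the 4 was called by edgeR for bleogen pB1.

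CD44 partners were described with 12 genes, of which 10 were tested. Under EGF none was called higher and 2 were called lower, near the 21.8% of all genes called lower, with a median log2FC of -0.11. CD74, which forms a receptor complex with CD44, fell from 1.80 ± 0.780 to 0.364 ± 0.121 CPM (log2FC -2.29), and ADAM10, a protease that sheds CD44, from 293 ± 8.46 to 204 ± 7.15 CPM (log2FC -0.52). CD74 held at most 56 counts in any library and was not called where at least 10 counts were required in every library. ADAM10 lies at the limit of 0.5 and was not called without untreated replicate 3 or without EGF replicate 2, which left 1 gene called. The other proteases of the list were not called. MMP14 had a log2FC of -0.06 (edgeR adjusted p = 0.58), and ADAM17 passed the limit on p alone (log2FC -0.16, edgeR adjusted p = 0.026). The proteins that tie CD44 to actin gave log2FC values of 0.42 (EZR), 0.32 (MSN) and -0.36 (RDX). The regulators of its splicing gave -0.20 (ESRP1) and 0.32 (ESRP2). Each of these genes passed the limit on p (edgeR adjusted p from 2.5e-05 for EZR to 0.0029 for ESRP1) and missed the limit on the fold. For bleogen pB1 none of the 10 was called by edgeR, and ESRP2 passed the limit on p alone (log2FC 0.27, edgeR adjusted p = 0.046).

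**Figure D5:**
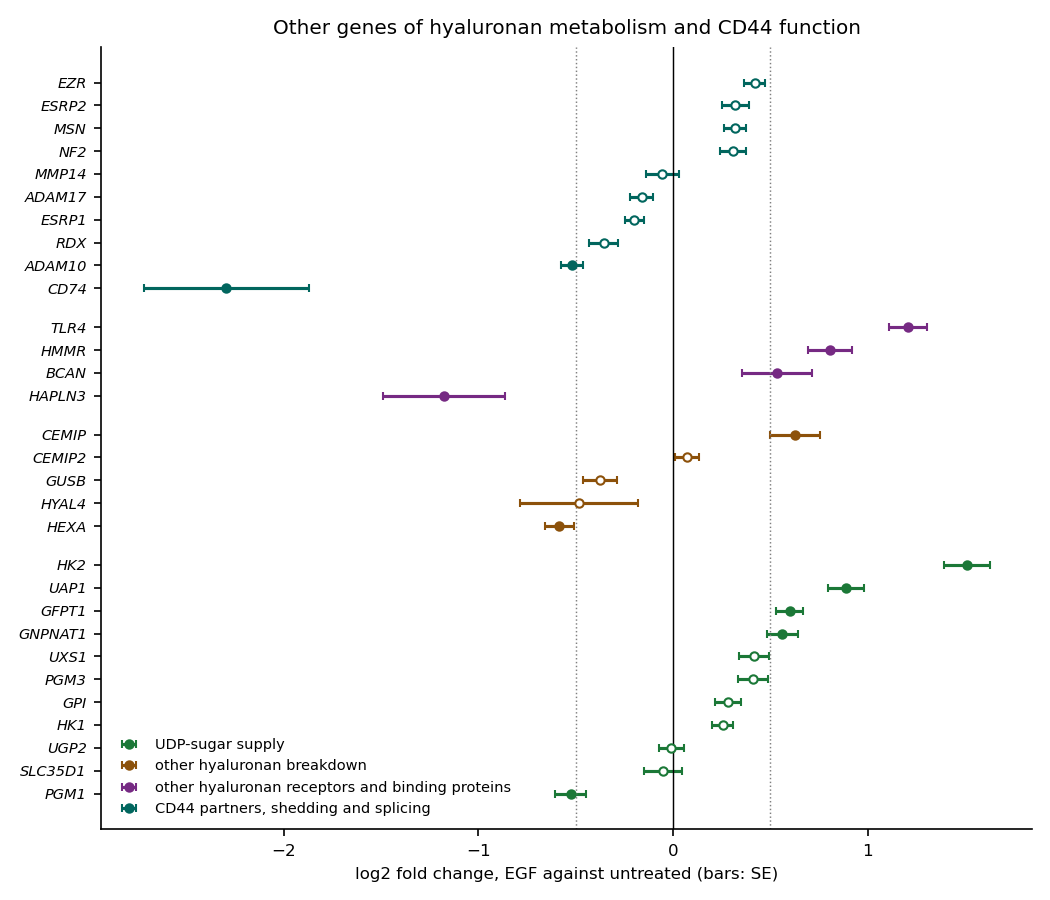
Log2 fold change under EGF (horizontal axis, edgeR, bars are SE) of tested genes of the 4 lists, with filled points for called genes, open points for genes not called and dotted lines at the limit of 0.5. HK2 (1.51) and TLR4 (1.21) rose most, and CD74 (-2.29), with at most 56 counts in any library, fell most.

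Between EGF and bleogen pB1, 4 of 11 sugar supply genes were called (HK2, UAP1 and GFPT1 higher, PGM1 lower), 1 of 6 breakdown genes (CEMIP higher), 4 of 4 receptors and binding proteins (HMMR, TLR4 and BCAN higher, HAPLN3 lower) and 1 of 10 CD44 partners (CD74 lower), against 28.8% of all genes (10.8% higher and 18.0% lower). Without bleogen pB1 replicate 1 the first and the third of these counts were 2. HAPLN3 was not called by DESeq2 in this comparison. The breakdown count was 0 without EGF replicate 1 or bleogen pB1 replicate 2 and 2 without EGF replicate 2, and the count of CD44 partners was 2 without EGF replicate 1. With upper-quartile scaling the 4 counts, in the order above, were 3, 0, 2 and 2. Tested against a log2FC of 0.5 they were 2, 0, 1 and 1.

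The genes whose levels ran most like HAS3 over the 9 libraries, by Pearson's r of log2 CPM among 10867 genes, were PDE12 (r = 0.997), GFPT1 (0.994) and IFRD1 (0.994). For CD44 they were ECM1 (0.999), ADAM8 (0.999) and SLC41A1 (0.998). These values describe 9 points in which the EGF-treated group stands apart, and 959 and 1091 genes reached an r of 0.95 with HAS3 and CD44.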

How the data were processed

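RNA-seq libraries of HaCaT cells (3 untreated, 3 EGF, 3 bleogen pB1) were grouped by their deposited titles and treatment labels. Reads were mapped by the sequencing provider to GRCh38.p12, per the submitters' processing notes. Each deposited file gives, for 1 library, expected counts without scaling for depth. The program that made them is not given in the sources used here. The deposited FPKM values scale the counts for gene length and depth, and the deposited gene length is an average over transcripts. A gene that a file did not list was taken as 0 there. The paper names the PureLink kit and a BGISEQ instrument, the labels the RNeasy kit and the DNBSEQ platform.

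Expected counts were rounded and tested with edgeR 4.0.16 (R 4.3.3) in one fit over 9 libraries: filterByExpr (12394 genes kept), TMM factors, glmQLFit, glmQLFTest and Benjamini-Hochberg adjustment over all genes kept. The thresholds are those of the study, which used DESeq2. SE is the absolute log2FC divided by the square root of F. CPM used TMM-scaled library sizes. Depth was 20288417 to 21320994 expected counts. Single values were compared with two-sided exact permutation tests. The scripts were tested on simulated data. Python 3.11.15 with pandas 2.3.3 and scipy 1.17.1 was used. Coordinates are 1-based, from GENCODE release 44, and promoter sequences are from RefSeq (GRCh38.p14).

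Named genes are the 8 members, list genes called under a treatment (at most 6 per list) or named as not called, genes that overlap a member, cell type markers, and for HAS3 and CD44 the 3 genes most like them with at least 50 counts on average. The members, lists and motifs were chosen with earlier results of these data known. Of the list genes, 1 is not reported here one by one and stays in the fits and the list counts. Alternatives were DESeq2 1.42.0, limma 3.58.1 on log2(FPKM + 1) or log2(FPKM + 0.1), other scaling, filters and fold limits, edgeR on 6 libraries, a replicate block, and each library left out.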

Additional observations from a re-analysis of the deposited data

How the results depend on the processing

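Under EGF the members called were HAS3, HYAL1, HYAL3 and CD44 in all alternatives but 2: testing against a log2FC of 0.5 and a limit of 1, where HYAL3 was not called. Between EGF and bleogen pB1 these 2 settings left 2 members (HAS3 and CD44) in place of 4. For bleogen pB1, leaving out 1 library gave 0 to 1 members called, and adjusted p alone gave 1, HYAL1 in both cases. All genes called under EGF were 2919 against a log2FC of 0.5, 8187 by adjusted p alone and 1892 at a limit of 1, in place of 4578. Between the treatments they were 2026, 7214 and 1458 in place of 3564. For bleogen pB1 they were 5, 509 and 31 in place of 183, with 99 by limma on log2(FPKM + 1) without a filter and 102 to 436 with 1 library left out (102 without untreated replicate 1 or bleogen pB1 replicate 3, 109 without bleogen pB1 replicate 2, 436 without bleogen pB1 replicate 1). The cause was not tested. Sign changes were all in values that were not called. They were near 0 except for HAS3 under bleogen pB1, with a log2FC of 0.28 in the main fit. Leaving out 1 library gave log2FC of -0.0607 to 0.4406 for HAS3 and -0.116 to 0.0284 for HYAL3 under bleogen pB1, and between the treatments -0.0127 to 0.1399 for HYAL2 and -0.0701 to 0.0797 for UGDH. HYAL2 between the treatments was -0.0174 with upper-quartile and -0.0013 with no scaling, -0.0096 by limma on log2(FPKM + 1) with or without a filter and -0.0105 on log2(FPKM + 0.1). Same-numbered libraries of different groups correlated between -0.03 and 0.21, and differently numbered ones between -0.25 and 0.16. These ranges overlap and show no clear pairing by replicate number, but they cannot exclude one. With the number as a replicate block 4560, 186 and 3550 genes were called for EGF, bleogen pB1 and EGF against bleogen pB1, and no member changed its call. HAS1 and HAS2 are limited by depth.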

Other observations

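The 3 bleogen pB1-treated libraries were not alike in the hyaluronan genes and list genes that EGF changed. Of the 17 members and list genes called under EGF, 13 had the value farthest in the direction of EGF in bleogen pB1 replicate 2, 3 in replicate 3 and 1 in replicate 1. In replicate 2, 13 of these genes lay beyond every untreated library on that side, against 9 in replicate 3 and 6 in replicate 1. This order was that of the whole series: of all 4578 genes called under EGF, 76.8% had that value in replicate 2, 15.6% in replicate 3 and 7.6% in replicate 1, and 79.2%, 63.1% and 36.7% lay beyond every untreated library in these replicates. HK2 stood at 28.3, 41.1 and 35.6 CPM in replicates 1, 2 and 3, with 25.3 to 28.4 CPM in untreated cells. HMMR stood at 77.5, 107 and 92.4 CPM, with 72.4 to 89.7 CPM in untreated cells. HYAL3, TLR4, CEMIP and BCAN did not share this order, nor did UAP1, in which replicate 1 (40.5 CPM) lay just above replicate 3 (40.2 CPM). HYAL3 stood at 6.83, 6.17 and 5.57 CPM and TLR4 at 11.99, 13.6 and 15.7 CPM. These counts were set up after the values were seen and were not tested.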
